A study of Homo sapiens with 5 samples.

Results

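H2A-K130ac peaks whose nearest edge lay more than 1 kb and at most 3 kb from the nearest annotated transcription start site were examined in C4-2B cells treated with abiraterone or Romidepsin. They were taken as the peaks that the authors' annotation places in its promoter classes of 1 to 2 kb and 2 to 3 kb. They numbered 2992 of 67806 peaks in the abiraterone list (4.41%, exact 95% binomial interval 4.26 to 4.57%) and 4871 of 91398 in the Romidepsin list (5.33%, 5.18 to 5.48%), 7863 of 159204 in all. The rule used position alone, so the strength of a peak, its side of the start site and its overlap with the other list played no part in the choice.

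C4-2B is a human prostate cancer cell line, although the labels of both samples name breast cancer. The abiraterone library came from C4-2B cells exposed to an inhibitor of CYP17A1, a key enzyme of androgen synthesis, and the Romidepsin library from C4-2B cells exposed to an inhibitor of histone deacetylases. Both were immunoprecipitated with an antibody to histone H2A acetylated at lysine 130, with 1 sample and 1 peak list per treatment, and no untreated C4-2B library was analysed here. The labels repeat for both the VCaP protocol of 0.5 µM Romidepsin. Doses and times for these cells are stated for other assays, such as ChIP-qPCR and qRT-PCR. Those of the sequenced libraries are not given in the sources used here. Peak lists hold no expression values against which the cell line could be checked. With 1 list per treatment no test between treatments was possible. The intervals below cover counting error over peaks or genes of 1 list only, and the number of reads behind a peak is unknown.

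The stretch just outside a promoter is where the nucleosomes next to a start site give way to the body of the gene on the downstream side and to intergenic or neighbouring sequence on the upstream side. At active genes, histone acetylation is generally densest near the start site and falls off through these shoulders. H2A-K130ac is an acetyl mark in the C-terminal tail of H2A, which the authors link to androgen production.

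Sequences are shown for genes at which peaks of both lists met in the flank, because those peaks were called in both libraries. Of the 16 microRNA genes flanked in both lists, 4 had peaks of both lists sharing bases. Their mature microRNAs, from RefSeq tables on GRCh38.p14, are given 5′ to 3′ with the seed (bases 2 to 8) in capitals.
let-7i-5p: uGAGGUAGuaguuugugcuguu
let-7i-3p: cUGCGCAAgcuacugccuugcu
miR-611: gCGAGGACcccucggggucugac
miR-3141: gAGGGCGGguggaggagga
miR-4687-5p: cAGCCCUCcucccgcacccaaa
miR-4687-3p: uGGCUGUUggagggggcaggc
The 16 genes gave 25 mature sequences with 25 distinct seeds, so no seed family recurred among them.

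For protein-coding genes, the 250 bases before the RefSeq start are shown for 3 of the genes with the strongest peaks in both lists, with each CG dinucleotide in capitals. They were picked to span the CpG content of the RefSeq windows of these genes. The observed over expected ratio is the number of CG times the length divided by the product of the C and G counts. DNHD1 (dynein heavy chain domain protein, GRCh38 chr11:6497030-6497279, plus strand) had 11 CG and a ratio of 0.512. VPS11 (a vesicle sorting subunit, GRCh38 chr11:119067568-119067817, plus strand) had 19 CG and a ratio of 0.787. MAP2K5 (the kinase MEK5, GRCh38 chr15:67542453-67542702, plus strand) had 41 CG and a ratio of 1.19. The RefSeq start need not be the start flanked by the peaks, which may be an internal start of the gene. The windows may therefore not be the promoters of the flanked start sites, and this was not checked. They are not the sequences of the peaks, and no peak position was mapped to them.
DNHD1: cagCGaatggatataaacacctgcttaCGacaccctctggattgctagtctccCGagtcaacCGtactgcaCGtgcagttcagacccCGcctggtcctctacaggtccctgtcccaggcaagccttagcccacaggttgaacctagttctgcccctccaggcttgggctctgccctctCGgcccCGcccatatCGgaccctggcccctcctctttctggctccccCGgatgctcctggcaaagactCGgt
VPS11: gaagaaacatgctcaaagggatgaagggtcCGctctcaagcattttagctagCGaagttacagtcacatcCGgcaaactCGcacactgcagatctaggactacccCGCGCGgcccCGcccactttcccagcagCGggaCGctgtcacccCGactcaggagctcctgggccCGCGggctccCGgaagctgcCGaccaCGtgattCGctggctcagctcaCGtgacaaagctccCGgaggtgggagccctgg
MAP2K5: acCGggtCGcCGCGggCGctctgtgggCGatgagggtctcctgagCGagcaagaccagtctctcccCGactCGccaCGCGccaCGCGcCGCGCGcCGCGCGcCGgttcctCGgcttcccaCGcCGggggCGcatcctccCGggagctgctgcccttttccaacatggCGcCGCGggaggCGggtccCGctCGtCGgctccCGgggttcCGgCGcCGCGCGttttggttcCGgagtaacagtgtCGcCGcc

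Peaks per kb of distance were most frequent around start sites and fell outwards in both lists. The flank sat on this slope. The amount of sequence lying at each distance from its nearest start site was not measured, and it falls outwards where start sites lie close together. The values below are thus counts per kb of distance and not densities over the genome. In the abiraterone list the upstream side held 877 peaks per kb within 1 kb of the start site, 775 at 1 to 2 kb, 635 at 2 to 3 kb and 504 at 3 to 10 kb. The downstream side held 940, 857, 725 and 596 per kb over the same windows. In the Romidepsin list the upstream values were 1359, 1177, 1096 and 779 per kb, and the downstream values 1396, 1372, 1226 and 923 per kb. Each step outwards was therefore lower than the one before it, on both sides and in both lists, and each downstream window was higher than its upstream counterpart.

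Set against the neighbouring 3 to 10 kb, the flank held 1.36 times as many peaks per kb in the abiraterone list (interval 1.303 to 1.42) and 1.43 times as many in the Romidepsin list (1.38 to 1.48). Against the window within 1 kb, which also takes in the 333 and 463 peaks lying over a start site, the ratios were 0.696 (0.658 to 0.736) and 0.757 (0.724 to 0.792). A peak within the inner window includes any that covers the start site, which favours that window in a count by nearest edge. With distances taken from the peak summit the ratios to the inner window rose to 0.840 and 0.948, and the ratios to 3 to 10 kb were 1.39 and 1.46. The ratio to 3 to 10 kb was above 1 on the upstream side (1.40 and 1.46) and on the downstream side (1.33 and 1.41). Enrichment over the sequence lying at these distances was not tested.

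The borders at 1 kb and 3 kb cut through this slope. In the abiraterone list 82 upstream peaks lay in the last 100 bp inside 1 kb and 83 in the first 100 bp beyond it, and downstream 93 and 87. At 3 kb the counts were 62 and 59 upstream and 69 and 71 downstream. In the Romidepsin list the counts at 1 kb were 131 and 130 upstream and 140 and 143 downstream. At 3 kb they were 98 inside and 128 outside upstream, and 117 and 108 downstream. Apart from the upstream border at 3 kb in the Romidepsin list, where more peaks lay outside than inside, the counts on either side of each border were close.

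**Figure D1:**
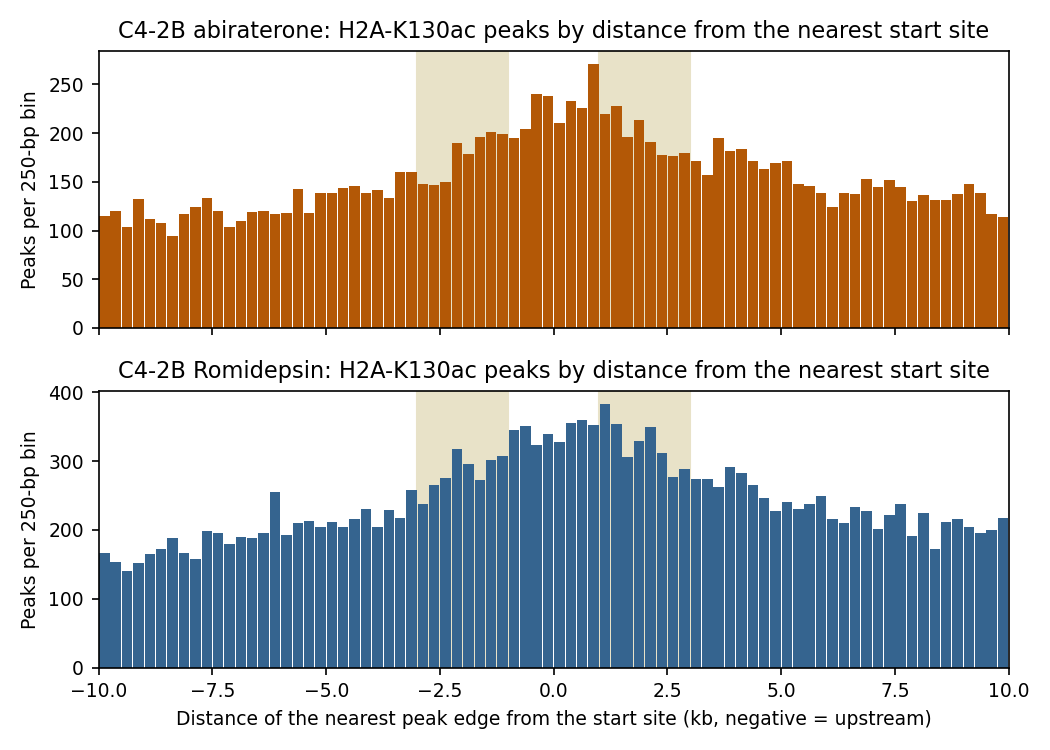
H2A-K130ac peaks per 250-bp bin (y axis) by the distance of the nearest peak edge from the nearest start site in kb (x axis, negative upstream), in the abiraterone (top) and Romidepsin (bottom) lists, without the 333 and 463 peaks over a start site. The shaded bands mark 1 to 3 kb, where counts run down from the centre to the level at 3 to 10 kb on both sides.

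More of the flanking peaks lay downstream, on the transcribed side, than upstream. The abiraterone list held 1410 upstream and 1582 downstream, an upstream share of 47.1% (45.3 to 48.9%). The Romidepsin list held 2273 and 2598, a share of 46.7% (45.3 to 48.1%). Both intervals lie below an even split and overlap each other almost wholly. Whether an even split is the right expectation is not known, since the amount of sequence assigned to each side was not measured. The lean was not particular to the flank, since the upstream share was 45.8% at 3 to 10 kb in both lists (44.7 to 46.9% and 44.9 to 46.7%) and 48.3% (45.9 to 50.6%) and 49.3% (47.4 to 51.2%) within 1 kb once peaks over the start site were set aside. The intervals of the flank overlap those of both neighbouring windows in each list.

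The surroundings of the 2 sides differed in the annotation. Upstream peaks lay inside the limits of another gene in 10.1% (abiraterone) and 9.11% (Romidepsin) of cases, against 6.57% and 7.08% of the downstream peaks. A start site of another gene lay within 3 kb of 3.19% and 2.64% of the upstream and of 6.20% and 5.66% of the downstream peaks. Downstream peaks wholly past the end of the annotated transcript numbered 136 (8.60%) and 214 (8.24%), and 63 and 93 of these belonged to microRNA or small nucleolar RNA genes, whose transcripts are short. Most downstream peaks thus lay at least partly within the gene they were assigned to. Limits and starts were known only for transcripts that are nearest to some peak of either list, so the shares near other genes are lower bounds.

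Flanking peaks were as weak or strong as peaks elsewhere. A −log10 q of at least 2, a q of 0.01 or lower in the authors' peak calling, was reached by 732 of 2992 flanking peaks in the abiraterone list (24.5%, 22.9 to 26.1%), against 24.9% of all peaks of that list. In the Romidepsin list it was reached by 148 of 4871 (3.04%, 2.57 to 3.56%), against 2.73% of all peaks. Upstream and downstream peaks had like shares, 24.3% and 24.7% in the abiraterone list and 2.86% and 3.19% in the Romidepsin list. In each list the flanking share therefore lay near its own background. Whether the difference between lists stems from the libraries, their control or the treatment cannot be told apart.

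The authors' fold over control had a median of 2.83 among the abiraterone flanking peaks (quartiles 2.76 and 3.40, highest 9.85) and 2.61 among the Romidepsin flanking peaks (2.58 and 3.48, highest 8.17). Median widths were 341 bp and 356 bp, beside 339 bp and 349 bp over all peaks. Folds took few distinct values. A fold of 2.85 alone was carried by 506 abiraterone flanking peaks (16.9%), and a fold of 2.61 by 1371 Romidepsin flanking peaks (28.1%), so ranks among ordinary peaks are mostly ties.

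Few flanking peaks were met by a peak of the other list. Of the abiraterone flanking peaks 163 (5.45%, 4.66 to 6.32%) shared a base with a Romidepsin peak, beside 4.04% over all abiraterone peaks, 5.02% within 1 kb and 4.68% at 3 to 10 kb. Of the Romidepsin flanking peaks 158 (3.24%, 2.76 to 3.78%) shared a base with an abiraterone peak, beside 2.90% over all Romidepsin peaks. The share was 6.31% upstream and 4.68% downstream in the abiraterone list, and 3.61% and 2.93% in the Romidepsin list, with overlapping intervals. The abiraterone flank thus lay above the share of its whole list, and its interval includes the shares of both windows around it. Most partners were themselves flanking peaks, 144 of the 163 and 139 of the 158.

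No overlap between the lists was left among flanking peaks that reached this q, 732 for abiraterone and 148 for Romidepsin, when the partner had to reach it too. A count of 0 allows shares of up to 0.410% and 2.03%. Over all peaks of that strength the shares were 0.183% and 1.16%, inside those limits.

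**Figure D2:**
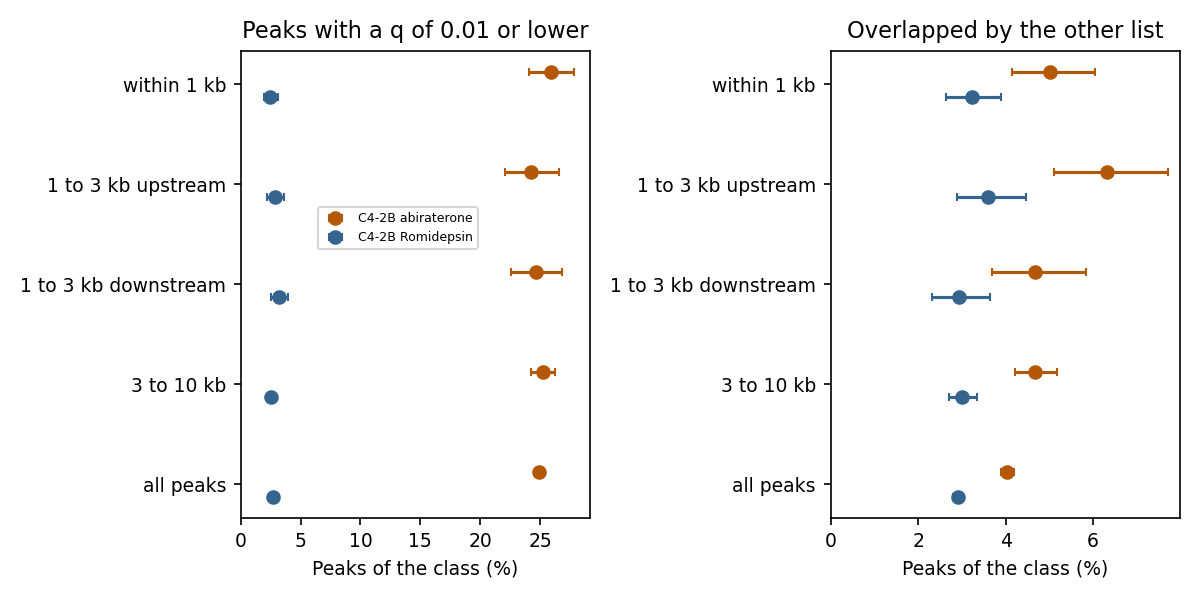
Percent of peaks (x axis) with a q of 0.01 or lower (left) and percent sharing a base with a peak of the other list (right), by position class (y axis), with exact 95% binomial intervals as bars. The flanking classes lie near all peaks in strength, at 24.3% and 24.7% for abiraterone and 2.86% and 3.19% for Romidepsin, and the overlap of the abiraterone peaks is 6.31% upstream and 4.68% downstream.

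The flanking peaks were spread thinly over genes. They belonged to 2551 start sites of 2436 genes in the abiraterone list and to 4336 start sites of 4016 genes in the Romidepsin list. Of these start sites 9.84% and 11.7% also had a peak within 1 kb. Among all 20056 protein-coding genes 1619 and 2416 had a peak within 1 kb. No share over all annotated start sites was computed, so the low shares cannot be read as a trait of flanking peaks. Start sites flanked on both sides numbered 54 (2.12%) and 156 (3.60%). Protein-coding genes made up 87.0% and 87.6% of the flanked genes, and long non-coding RNA genes 5.62% and 5.95%, beside 8.48% and 8.13% of the genes nearest to any peak.

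Start sites with 2 or more flanking peaks numbered 421 (16.5%, 15.1 to 18.0%) in the abiraterone list and 480 (11.1%, 10.1 to 12.0%) in the Romidepsin list. Many of these in the abiraterone list were pairs of very narrow peaks. Peaks of at most 130 bp made up 23.7% of the abiraterone and 14.6% of the Romidepsin flanking peaks. Neighbouring peaks that were both this narrow had starts within 450 bp of each other in 6703 of 7864 cases (85.2%) over the whole abiraterone list and in 2326 of 3822 (60.9%) over the Romidepsin list. Where both neighbours were wider, that held for 0.963% and 1.13%. With each such pair counted once, a rule set after the widths were seen, start sites with 2 or more flanking peaks came to 196 (7.68%, 6.68 to 8.79%) and 399 (9.20%, 8.36 to 10.1%), which turns the order of the lists. The number of flanking peaks was then 2697 and 4756.

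**Figure D3:**
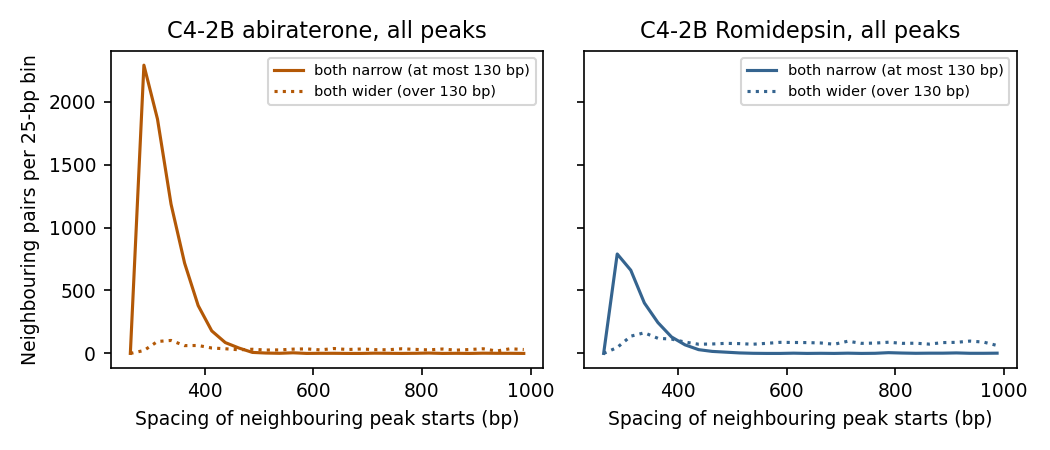
Number of neighbouring peak pairs per 25-bp bin (y axis) by the spacing of their starts in bp (x axis), over all peaks of the abiraterone (left) and Romidepsin (right) lists. Pairs in which both peaks are at most 130 bp wide (solid) pile up below 450 bp, with median spacings of 312 and 313 bp among the 6703 and 2326 pairs, and pairs of wider peaks (dotted) show a much smaller rise there.

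The 2 lists shared 624 flanked genes, 25.6% of those in the abiraterone list (23.9 to 27.4%) and 15.5% of those in the Romidepsin list (14.4 to 16.7%). Among protein-coding genes 567 were shared, 26.7% of 2120 and 16.1% of 3517. As background, 10.6% of all 20056 protein-coding genes carried an abiraterone and 17.5% a Romidepsin flanking peak. Genes with a peak within 1 kb were shared to 19.1% and 12.5%. Long genes with many start sites have more flank to be hit in either list, and no allowance was made for that.

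At the level of single start sites 423 were flanked in both lists (16.6% and 9.76%). The nearest abiraterone and Romidepsin peaks lay on the same side at 279 of these (66.0%, 61.2 to 70.5%), both upstream at 140 and both downstream at 139. They shared bases at 136 (32.2%, 27.7 to 36.8%) and lay within 500 bp at 210. Taking the nearest pair favours the same side where a site has several peaks. No background over all annotated start sites was computed for the shared sites, nor an expected share for the same side. The remaining 144 start sites had an abiraterone peak on one side and a Romidepsin peak on the other.

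**Figure D4:**
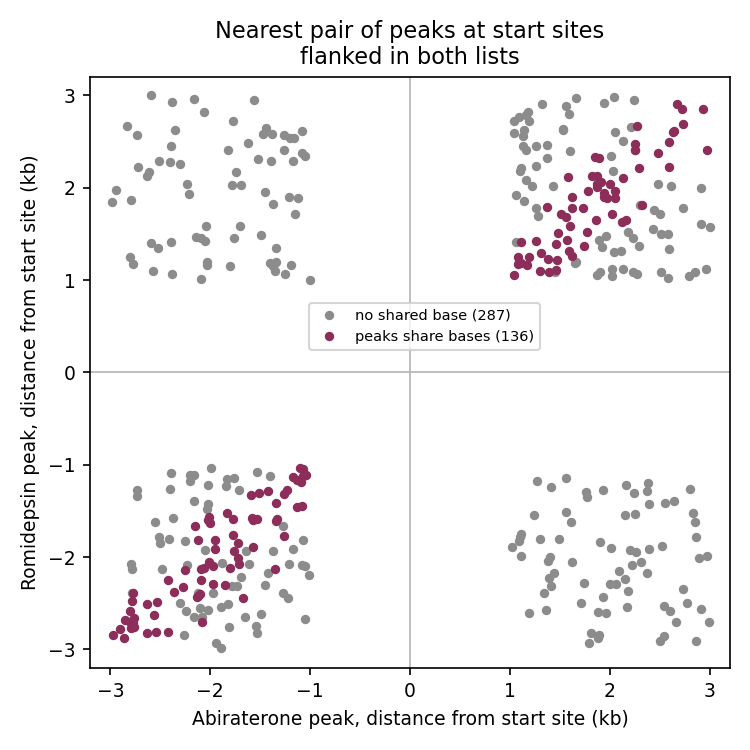
Distance from the start site in kb of the abiraterone peak (x axis) and of the Romidepsin peak (y axis), for the nearest pair at each of the 423 start sites flanked in both lists (negative upstream). The 136 pairs that share bases (purple) lie along the diagonal, the other same-side pairs scatter over those quadrants, and 144 pairs lie in the opposite-side quadrants.

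The 5 strongest flanking peaks of the abiraterone list stood at 5 different genes. GJA3, which encodes a gap junction connexin, carried the highest fold, 9.85 with a −log10 q of 11.8, in a peak 1370 bp downstream of its start (hg19 chr13:20733602-20733813). IDO2, an enzyme of tryptophan breakdown, followed with a fold of 8.52 in a peak 1789 bp upstream (hg19 chr8:39790471-39790685). GBP2, an interferon-induced GTPase, carried 8.40 at 2273 bp downstream. A fold of 7.56 was carried both by PPFIBP2, a liprin, at 2913 bp upstream and by RDH13, a retinol dehydrogenase, at 2343 bp upstream. None of the 5 was met by a Romidepsin peak, but only 5.45% of all abiraterone flanking peaks were. With so low a share, 5 peaks are too few to read anything from that.

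The 5 strongest flanking peaks of the Romidepsin list likewise stood at 5 genes, none of them among those of the abiraterone list. MRPS22, a mitochondrial ribosomal protein, carried a fold of 8.17 with a −log10 q of 6.84 in a peak 1780 bp downstream (hg19 chr3:139064578-139065289). SIN3B, the scaffold of a complex that holds the deacetylases HDAC1 and HDAC2, carried 7.84 at 2884 bp downstream (hg19 chr19:16943093-16943327). MECOM, a zinc finger transcription factor, carried 7.64 at 2075 bp upstream. The non-coding RNA SNHG12, host of small nucleolar RNAs, carried 7.36 at 2002 bp upstream, and NEXN, an actin-binding protein, carried 7.237 at 1646 bp downstream. None of these was met by an abiraterone peak, but only 3.24% of all Romidepsin flanking peaks were, so this too cannot be read further.

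Peaks of the 2 lists shared bases in 146 pairs of flanking peaks, all assigned to the same gene in both lists, at 134 genes, with 77 pairs upstream. The pair with the highest lower fold lay 2764 bp and 2757 bp upstream of CDK11B, a cyclin-dependent kinase, with folds of 4.60 in the abiraterone list (hg19 chr1:1650681-1650805) and 4.71 in the Romidepsin list. CDK11B has a near-identical neighbouring copy, CDK11A, so reads there could be split between them. At VPS11 the folds were 4.48 and 4.36 at 1354 bp and 2127 bp upstream, with 160 bp shared. These pairs are weaker than the strongest peaks of either list.

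The other leading pairs met over fewer bases. At DNHD1 a single abiraterone peak (fold 3.80) touched a pair of Romidepsin peaks (4.30 each) with 5 bp and 174 bp in common. MAP2K5 had folds of 3.77 and 4.26 and shared 9 bp. ARHGAP42, a GTPase-activating protein, had 3.72 and 3.77 with 122 bp shared, and DAAM1, a formin that builds actin filaments, had 3.68 and 3.83 with 28 bp shared. In the Romidepsin list each peak of these genes had a −log10 q below 2, so none would pass a q of 0.01.

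Genes with the most flanking peaks were long genes with several start sites. In the abiraterone list SEMA6A, a semaphorin, had 5 peaks at 3 start sites, and 2 of them formed a narrow pair. PPFIBP2 had 4 at 3 start sites, the one named above and others of fold 2.85. NMNAT2, an enzyme of NAD synthesis in neurons, had 5 peaks in each list. Of its abiraterone peaks 4 formed 2 narrow pairs, 1999 bp and 2279 bp upstream of one start and 1957 bp and 1591 bp downstream of another. A Romidepsin peak of fold 4.36 lay over the same upstream stretch (hg19 chr1:183261506-183262285). MICAL2, an actin-oxidizing enzyme, led the Romidepsin list with 6 peaks at 3 start sites, 4 of them around one start, with folds between 2.58 and 3.48. TNS1, a focal adhesion protein, had 5, the strongest at 2952 bp upstream with a fold of 5.23.

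At start sites flanked on both sides the strongest examples differed between the lists. Only 16.6% and 9.76% of all flanked start sites were flanked in the other list too, so with this few examples the difference cannot be read further. COL22A1, a collagen, had abiraterone peaks 1828 bp upstream (fold 4.75) and 1278 bp downstream (fold 5.37) of one start. CAD, which starts pyrimidine synthesis, had 3.68 at 1178 bp upstream and 3.80 at 2705 bp downstream, and SLC36A4, an amino acid transporter, had 3.58 and 3.76. The non-coding gene LINC01119 had 3.78 upstream and 4.75 downstream. In the Romidepsin list CTTNBP2NL, a cortactin-binding protein, had 4.28 at 1189 bp upstream and 5.16 at 1898 bp downstream. LINC00926, the pseudogene EFL1P1 and DUS3L, a tRNA-modifying enzyme, each reached 4.36 on the weaker side.

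The androgen-response list, made of androgen-regulated prostate genes and their regulators, had flanking peaks at 6 of 18 genes in the abiraterone list (33.3%, 13.3 to 59.0%) and at 2 of 18 in the Romidepsin list (11.1%, 1.38 to 34.7%), beside the 10.6% and 17.5% of all protein-coding genes. Every one of these peaks lay downstream of a start. Of all flanking peaks 47.1% and 46.7% lay upstream, and the peaks of this list are too few to read a side from. The genes of this list were chosen with earlier results of these data known. TMPRSS2, an androgen-induced serine protease, carried an abiraterone fold of 2.81 at 1011 bp. KLK2, a prostate kallikrein, carried 2.83 at 1708 bp, and KLK3, which encodes prostate-specific antigen, 1.88 at 2528 bp (hg19 chr19:51360699-51361213). TRPM8, a cold-sensing channel, carried 2.80 at 2202 bp.

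NDRG1, a stress- and androgen-responsive gene, was flanked in both lists at different start sites. Its abiraterone peaks, at 1708 bp and 2362 bp downstream of an internal start, had folds of 4.75 and 3.78. Its Romidepsin peak, 2068 bp downstream of another start, had a fold of 1.74. Except for those of NDRG1 in the abiraterone list, each peak of this list had a −log10 q below 2.

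Genes of androgen synthesis were flanked at 4 of 15 in each list (26.7%, 7.79 to 55.1%), an interval that includes the 10.6% and 17.5% of all protein-coding genes. CYP17A1, the target of abiraterone, had a Romidepsin peak 2358 bp upstream (hg19 chr10:104599648-104600089, fold 3.48) and no abiraterone flanking peak. SRD5A2, a 5-alpha reductase, had a Romidepsin peak 2831 bp upstream, also of fold 3.48. HSD17B3, which makes testosterone in the testis, had an abiraterone peak 1253 bp upstream (fold 3.80), and POR, the electron donor of P450 enzymes, one 1452 bp downstream (fold 1.89). AKR1C3 and CYB5A were flanked in both lists without shared bases, CYB5A on the same side of the same start at 2785 bp and 2392 bp upstream. The intervals of this list and of the androgen-response list are wide, since each holds few genes.

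Sterol and fatty acid synthesis genes were flanked at 4 of 25 in each list (16.0%, 4.54 to 36.1%), near the 10.6% and 17.5% of all protein-coding genes. None was in common, and with 26.7% and 16.1% of flanked protein-coding genes shared in general, 4 genes are too few to read anything from that. The abiraterone peaks lay at SREBF1, the sterol-responsive transcription factor, 1041 bp upstream with a fold of 2.82, and downstream at IDI1 (2.81), an enzyme of isoprenoid synthesis, SCD (2.85), which desaturates fatty acids, and ACACA (1.88), which commits carbon to fatty acids. The Romidepsin peaks lay at SQLE, the squalene epoxidase, 1484 bp downstream with a fold of 5.15, at ACSL1 (3.48) downstream, and at FDPS (3.44) upstream. Of the 8 peaks of this list that of SQLE alone had a −log10 q of at least 2.

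Genes that write, erase or read acetyl marks were flanked at 4 of 25 in the abiraterone list (16.0%, 4.54 to 36.1%) and 6 of 25 in the Romidepsin list (interval 9.36 to 45.1%). These intervals again include the 10.6% and 17.5% of all protein-coding genes. None was in common. Of flanked protein-coding genes in general 26.75% and 16.12% were shared, so these genes are too few to read anything from that. The abiraterone list had the acetyltransferases KAT2A, as a narrow pair at 1730 bp and 2009 bp downstream, and KAT7, and the deacetylases HDAC8 and HDAC9. HDAC9 was flanked on both sides, at 1083 bp upstream (fold 2.84) and 2170 bp downstream (fold 3.58). The Romidepsin list had the deacetylases HDAC4, HDAC5, HDAC6 and HDAC7, the acetyltransferase CREBBP and the bromodomain reader BRD2, with folds between 1.74 and 3.48. The −log10 q of these Romidepsin peaks ran from 0.240 (HDAC4) to 1.285 (HDAC5), all below the looser threshold of 1.3. Among the abiraterone peaks of this list, only that of HDAC9 downstream reached 2 (2.02). The deacetylases of the Romidepsin list were all of class II, as was HDAC9 of the abiraterone list. These genes are too few to read a class pattern from.

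Larger families lay below or near their backgrounds. Replication-dependent histone genes were flanked at 4 of 71 (5.63%) and 3 of 71 (4.23%), among them H4C7 with an abiraterone fold of 4.72 at 2829 bp downstream. Symbols of the ribosomal protein pattern were flanked at 12 of 97 (12.4%) and 13 of 97 (13.4%), with RPL15 and RPL38 in both lists, and the pattern also takes in kinase genes such as RPS6KA4. RPL38 had an abiraterone peak of fold 2.83 at 1691 bp and a Romidepsin peak of 3.48 at 2213 bp upstream of the same start, without shared bases. Zinc finger genes were flanked at 36 of 517 (6.96%) and 72 of 517 (13.9%), with 5 in common. Olfactory receptor genes, a family silent in most tissues, were flanked at 38 of 392 (9.69%) and 27 of 392 (6.89%), with 5 in common. Of flanked protein-coding genes in general 26.75% and 16.12% were shared. The small counts in common of these families were not tested against that.

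**Figure D5:**
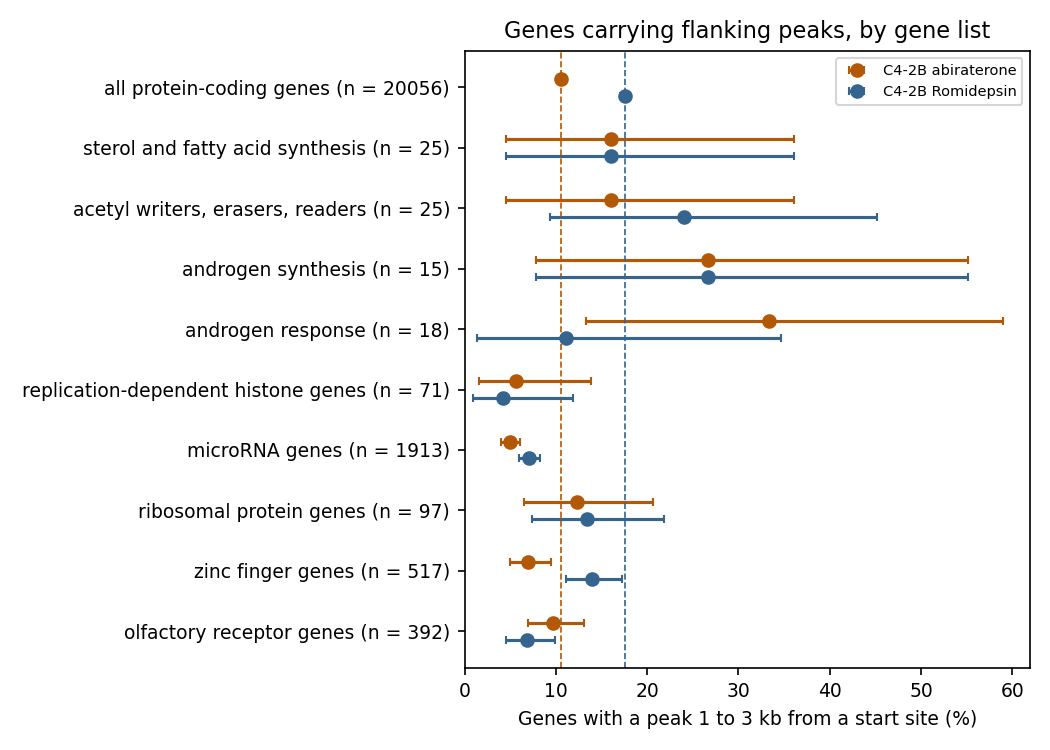
Percent of the genes of each list that carry a flanking peak (x axis) for abiraterone (brown) and Romidepsin (blue), with exact 95% binomial intervals as bars, and dashed lines at 10.6% and 17.5% for all 20056 protein-coding genes. The androgen-response list stands at 33.3% for abiraterone with an interval from 13.3 to 59.0%. The intervals of the other lists of at most 25 genes include their dashed lines. Those of the microRNA and zinc finger genes lie below theirs in both lists. For Romidepsin alone, so do those of the histone (0.880 to 11.9%) and olfactory receptor genes (4.59 to 9.86%). The lines are for protein-coding genes and are no background for microRNA genes.

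MicroRNA genes, whose start in this annotation is the start of the precursor and not of the primary transcript, were flanked at 95 of 1913 (4.97%) in the abiraterone and at 135 of 1913 (7.06%) in the Romidepsin list. In this family the members and the background are the same genes, so those percentages are both. The 16 in common had peaks on the same side at 9 and on opposite sides only at 7. Of all flanked genes 25.6% and 15.5% were shared, and the 16 were not tested against that. At MIRLET7I, the source of the tumour suppressor let-7i printed above, the abiraterone peak (hg19 chr12:63000097-63000416, fold 2.83) lay within the Romidepsin peak (hg19 chr12:63000074-63000456, fold 6.06, −log10 q 3.9), 2631 bp and 2608 bp downstream of the precursor start. This was the highest fold among the microRNA genes flanked in both lists.

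The other microRNA genes with shared bases had weaker peaks. MIR3141 had folds of 2.83 and 3.38 at 1064 bp and 1107 bp upstream, MIR611 2.85 and 2.61 at 1868 bp and 2009 bp downstream, and MIR4687 2.69 and 2.26 at 1263 bp and 1421 bp downstream. MIR146A, an NF-kB-induced regulator of innate immunity, had an abiraterone peak 1743 bp downstream and a narrow pair of Romidepsin peaks 2280 bp and 2602 bp upstream. MIR671 had 3 abiraterone peaks upstream, the strongest with a fold of 4.69, and 1 Romidepsin peak downstream.

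CpG content set the flanked genes little apart. The median observed over expected ratio in the 250 bases before the RefSeq start was 0.756 for the 1737 abiraterone genes with a window and 0.743 for the 2825 Romidepsin genes, beside 0.737 for 15843 protein-coding genes and 0.758 and 0.751 for genes nearest to any peak. A ratio of at least 0.6 was found in 65.6% (63.3 to 67.8%) and 65.5% (63.7 to 67.2%) of the flanked genes, and in 63.4% of all windows. The windows of upstream- and downstream-flanked genes had medians of 0.750 and 0.758 in the abiraterone list and 0.743 and 0.741 in the Romidepsin list. The CG count reads the same on both strands.

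By chromosome the flanking share was highest on chromosome 19, at 14.9% of the peaks in each list. Chromosomes 17 (9.09% and 9.17%) and 22 (7.62% and 9.25%) came next, in this order in the abiraterone list and in the reverse order in the Romidepsin list. The lowest shares among the autosomes were 2.35% on chromosome 4 in the abiraterone list and 2.95% on chromosome 13 in the Romidepsin list. The number of abiraterone over Romidepsin flanking peaks ranged from 0.345 on chromosome X to 0.927 on chromosome 3, where the same ratio over all peaks was 0.443 and 1.28, so the spread belongs to the whole lists.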

How the data were processed

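H2A-K130ac ChIP-seq libraries of C4-2B cells were analysed from the authors' peak lists. The labels describe sonicated chromatin, Bowtie 2 alignment and peak calling, and the submitters' processing notes name MACS2 and hg38. Positions in the lists run past the end of chromosome 1 in GRCh38 (last end 249191832 and 249119849) and the transcript identifiers are of UCSC, so coordinates were taken as hg19. The score, the fold over control (a ratio) and the −log10 p- and q-values were deposited by the authors, and are the output of their peak caller. Folds rank peaks within a list and are not levels that can be set against those of the other library. The lists held 67807 and 91399 peaks, of which the first was lost to the header line of the annotated tables, and the conservative and optimal tables were identical. The study's reporting form describes duplicate runs of every sample, a vehicle-treated control and broad peaks at a q of 0.01. The lists hold narrow peaks named as called over input, and most Romidepsin peaks have a higher q, so that form may not describe these lists, and what the fold is relative to rests on the file naming. Whether the duplicates were pooled, and whether both lists share an input, is not given in the sources used here. The 3 VCaP samples were not analysed here.

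The annotated distance equalled that from the nearest peak edge to the start site for every peak, as recomputed, and the classes of 1 to 3 kb followed from it. Shares carry exact Clopper-Pearson intervals, and density ratios the interval of the corresponding binomial share. No test was made, because each treatment has 1 list. Distances and overlaps were tested on simulated data. Genes were matched by identifier to RefSeq tables on GRCh38.p14 (5797 of 5828), and 4087 of 5070 coding genes (80.6%) had a promoter window. Those windows were used for sequence alone, and no peak coordinate was mapped to them.

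Genes were named by rule: the 5 flanking peaks of highest fold per list, up to 8 pairs sharing bases at the same gene by the lower fold, the 3 genes with the most flanking peaks, up to 4 start sites flanked on both sides, and members of the gene lists. For the larger families the rule names more genes than are printed, and a few named genes are not reported here. The members and the gene lists were chosen with earlier results of these data known. Alternatives were a stricter and a looser q, summit distance, the conservative table, chromosomes without X and Y, 1 peak per start site, protein-coding genes, isolated start sites, single windows, peaks under 800 bp, a 50% overlap and the same side; counting narrow pairs once was chosen after seeing the data. Python 3.11.15, numpy 2.4.6, pandas 2.3.3, scipy 1.17.1 and matplotlib 3.10.9 were used.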

Additional observations from a re-analysis of the deposited data

How the results depend on the processing

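Of 62 alternative values for 14 results, 41 stayed within counting error of the value reported (counts within 1.5 times) and 21 moved. No paired analysis was possible because 1 list per treatment was deposited. At a −log10 q of at least 2, flanking peaks fell to 732 (abiraterone) and 148 (Romidepsin), the Romidepsin upstream share was 43.9%, the ratio to the density within 1 kb was 0.656 and 0.925, the Romidepsin ratio to 3 to 10 kb was 1.70, overlap between lists was 0.0% and 0.0%, and shared genes were 0.439% and 2.05%. At a −log10 q of at least 1.3, 90.2% and 13.6% of flanking peaks passed, beside 89.2% and 12.6% of all peaks. With summit distances the ratio to the inner window was 0.840 and 0.948, and without peaks over the start site 0.823 and 0.884. Asking for 50% of each peak to be shared left 1.838% and 1.19%, beside 1.29% and 0.954% over all peaks, and genes shared on the same side were 15.7% and 9.54%. With narrow pairs counted once, the abiraterone share at a −log10 q of at least 2 was 26.5%. Wherever they were recomputed, the density ratio to 3 to 10 kb stayed above 1, that to the inner window below 1, and the upstream share below 50%. The depth behind each peak is unknown, and most Romidepsin peaks have a q above 0.01.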

Other observations

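Of neighbouring pairs of peaks at most 130 bp wide with starts within 450 bp, 25.8% had exactly the same fold in the abiraterone list and 45.8% in the Romidepsin list. The quartiles of their start spacings ran from 292 to 341 bp and from 293 to 342 bp. At the same start site such pairs supplied a second peak for 238 of the 2992 abiraterone flanking peaks (7.96%) and for 92 of the 4871 Romidepsin flanking peaks (1.89%). Named genes with them include SEMA6A, NMNAT2, KAT2A, RPL30 and MIR671 in the abiraterone list and MIR146A in the Romidepsin list. The pairs were noticed while the named peaks were read, so the widths and spacing that define them were set after the values were seen, and their origin was not tested.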
